A study of Mus musculus with 18 samples.

Results

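The 9 genes described here code for proteins of the acute phase response and of the complement system, together with inducible nitric oxide synthase: *Saa3*, *Lcn2*, *Wfdc21*, *Hp*, *C3*, *C4b*, *Cfb*, *Serping1* and *Nos2*. They were taken by symbol from a table of 54532 genes. They were chosen with their values in these libraries known, so every level, difference and count of theirs is given as a description, without a p-value. All 9 passed the filter on low counts, as did 14317 genes in all, but *Saa3*, *Wfdc21*, *Cfb*, *Serping1* and *Nos2* held 3 counts or fewer in at least 1 group and passed through the groups in which they were high.

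RNA was sequenced from 18 libraries of 10T1/2 cells (spelled CH310T1/2 and described as mesenchymal stem cells in the labels), a mouse embryonic fibroblast line that can be turned toward fat cells. The cells were WT or carried the label FOXS1 KO, clone 1 or clone 2, for the forkhead transcription factor FOXS1. Each was left uninduced (labelled Control) or was stimulated from 2 days after confluence, first with TGF-β1 at 1 nM over 12 h and afterwards, over 48 h, with the adipogenic cocktail DMII. DMII holds insulin, indomethacin, the glucocorticoid dexamethasone and the phosphodiesterase inhibitor 3-isobutyl-1-methylxanthine. Each of the 6 groups held 3 libraries. The labels name DMEM with 10% fetal bovine serum as the growth medium of all cells. The study's methods add that 10T1/2 cells went overnight without serum before TGF-β1 and that DMII was made up in DMEM mixed with Ham's F-12, so a change of serum and medium cannot be told apart from TGF-β1 and DMII. The labels give neither the hour at which uninduced cells were taken nor their medium at that time. Each KO group was 1 clone grown from a single cell after CRISPR-Cas9 editing and puromycin selection, whereas WT was the parent population, so the edit and the history of a clone cannot be told apart within a clone. Nothing in the labels says that the 3 libraries of a group came from separate cultures, and the standard errors (SE) and p-values below therefore measure the spread between libraries, which may be technical.

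Acute phase proteins are plasma and tissue proteins whose synthesis shifts during inflammation, mainly in the liver under IL-6, IL-1 and TNF, through the transcription factors C/EBPβ, C/EBPδ, STAT3 and NF-κB. Fibroblasts and fat cells also make several of them. Complement is a cascade of plasma proteases in which the classical route (C1, C4, C2) and the alternative route (factor B) both cleave C3, and inhibitors such as C1 inhibitor, the product of *Serping1*, hold it in check. Adipose tissue is a known source of C3, factor B, haptoglobin, lipocalin 2 and SAA3.

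In GRCm38 (mm10), the acute phase genes lie at chr7:46711998-46715700 (*Saa3*, minus strand), chr2:32384633-32388252 (*Lcn2*, minus), chr8:109575128-109579172 (*Hp*, minus) and chr11:83746940-83752642 (*Wfdc21*, plus). The complement genes lie at chr17:57203970-57228136 (*C3*), chr17:34728380-34743882 (*C4b*), chr17:34856374-34862518 (*Cfb*) and chr2:84765387-84775444 (*Serping1*), all on the minus strand, and *Nos2* lies at chr11:78920787-78960254 on the plus strand. All 9 are annotated as protein coding. *Cfb* shares 79.5% of its exonic bases with *Gm20547* on the same strand, a gene with 0 counts in all 18 libraries, so its level is uncertain. *C4b* is a near copy of its neighbour *C4a*: 48.3% of its 31-base stretches and 7.48% of its 150-base stretches also occur there, and reads may have been split between them.

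The bases before the start of a gene are shown for *Saa3* and *C3*, a gene without a count in WT and the complement gene with the highest level. They come from the RefSeq promoter table (build GRCm38.p6), which holds 3 of the 9 members, *Saa3*, *Lcn2* and *C3*. *Wfdc21*, *Hp*, *C4b*, *Cfb*, *Serping1* and *Nos2* have no entry. The sequences run 5′ to 3′ on the strand of the gene and end at the base before its first annotated exon, chr7:46715701-46715926 for *Saa3* and chr17:57228137-57228386 for *C3*, both on the minus strand, and capitals mark a match to TTGCNNAA, a core of C/EBP sites, read on either strand.
Saa3: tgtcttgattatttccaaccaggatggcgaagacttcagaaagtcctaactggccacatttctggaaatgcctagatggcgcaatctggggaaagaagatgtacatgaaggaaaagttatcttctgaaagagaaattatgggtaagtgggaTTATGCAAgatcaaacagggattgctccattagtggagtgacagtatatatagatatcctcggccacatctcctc
C3: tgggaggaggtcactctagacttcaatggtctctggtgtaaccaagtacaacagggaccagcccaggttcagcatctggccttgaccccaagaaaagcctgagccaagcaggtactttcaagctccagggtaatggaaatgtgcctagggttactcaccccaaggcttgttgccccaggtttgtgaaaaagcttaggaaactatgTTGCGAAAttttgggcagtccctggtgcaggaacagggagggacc
Counted back from 1 at the last base shown, the match in *Saa3* covered bases 75 to 68, on the opposite strand, and that in *C3* bases 45 to 38, on the strand of the gene. The RefSeq start of *Saa3* lies 24 bases further on, inside the annotated exon. *Lcn2* held 1 as well, 216 to 209 bases before its RefSeq start, inside an exon of a longer transcript. All 3 members of the table held the C/EBP letters, which 9.56% of the 32851 promoters of 250 bases held. Searched on both strands, the consensus letters of NF-κB, the STAT letters TTCNNNGAA and the forkhead letters TGTTTAC occurred in 0 of the 3, against 7.25%, 7.02% and 3.17% of all promoters. A match is a string of letters and not a measured binding site.

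The libraries held 15576685 to 42005596 counts (median 20178953.5). Values are CPM, counts scaled to a common library size with TMM factors. For a group with a count of 0, a limit of 3 counts was set, equal to 0.0354 to 0.0603 CPM over the libraries of a group, for counting error only. A fold given as at least a value is set against this limit and leaves out counting error in the other group. Replicates differed by more than sampling noise in all 18 pairs. *Foxs1* itself stood at 1.64 to 3.25 CPM in the 6 WT libraries and at 21.1 to 56.8 CPM in the 12 libraries labelled KO, which is against the direction of the label. Totals over a gene do not show an edit of its exon. The study's methods describe sequencing of the locus and a western blot that showed loss of the protein in the clones, neither of them analysed here, and directions between KO and WT below rest on the labels. The 9 fibroblast markers examined summed to 34100 to 79300 CPM in every library, but they did not all move alike. Uninduced and stimulated means of *Thy1* were 59.6 and 49 CPM in WT, 184 and 161 in clone 1, and 0.616 and 0.342 in clone 2. Those of *Pdgfra* were 517 and 731 CPM in WT, 171 and 310 in clone 1, and 216 and 301 in clone 2. The 9 macrophage markers examined summed to 0.349 to 1.85 CPM in every library. Of these, *Ptprc*, *Cd163* and *Tyrobp* were at 0 in all 6 groups, while group means of *Cd68* were 0.424 to 1.33 CPM, highest in uninduced clone 2.

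Clone 1 uninduced replicate 3 stood apart. It held counts of all 7 hepatocyte markers examined, 1743 in total or 90.3 CPM, led by albumin (*Alb*, 1074 counts), against 0 to 0.839 CPM in the other 17 libraries. Several of the 9 genes are made in liver, so values of uninduced clone 1 without this library are given as well, beside the result or after the comparison of the clones. Relative to the mean of replicates 1 and 2, it held 7.54 times as much *Serping1* and 2.24 times as much *C4b*, while the other 7 members lay between 0.497 and 1.11 times that mean.

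In stimulated cells both clones held more *Saa3*, *Lcn2*, *Wfdc21*, *Hp*, *C3*, *C4b* and *Nos2* than WT, by very different amounts, and less *Serping1*. *Cfb* held 2 counts in each stimulated group. A gene was called where edgeR's quasi-likelihood test gave a Benjamini-Hochberg adjusted p under 0.05 and the log2 difference passed 1 in size. By that rule 8 of the 9 members were called in stimulated clone 1 against WT, 7 higher and 1 lower, where 19.0% of all genes tested were called (9.42% higher, 9.60% lower). In clone 2 the same 8 were called, beside 16.9% of all genes (7.95% higher, 8.94% lower). In uninduced cells 6 members were called in each clone, 5 higher (*Saa3*, *Lcn2*, *Wfdc21*, *C3*, *Nos2*) and 1 lower (*Serping1*), beside 15.1% of all genes in clone 1 (6.32% higher, 8.73% lower) and 15.1% in clone 2 (5.54% higher, 9.56% lower). Nothing is read from these counts, since the members were picked on these differences. The comparisons of clone 1 and clone 2 share their WT libraries. Of all genes tested, 5.26% were called higher and 5.77% lower in both stimulated clones, 3.28% higher and 5.78% lower in both uninduced clones, and 1.72% higher and 3.77% lower in all 4 comparisons, the pattern of *Saa3*, *Lcn2*, *Wfdc21*, *C3* and *Nos2* on the higher side and of *Serping1* on the lower. Across bulk samples, fewer cells of a type and less RNA per cell cannot be told apart.

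**Figure D1:**
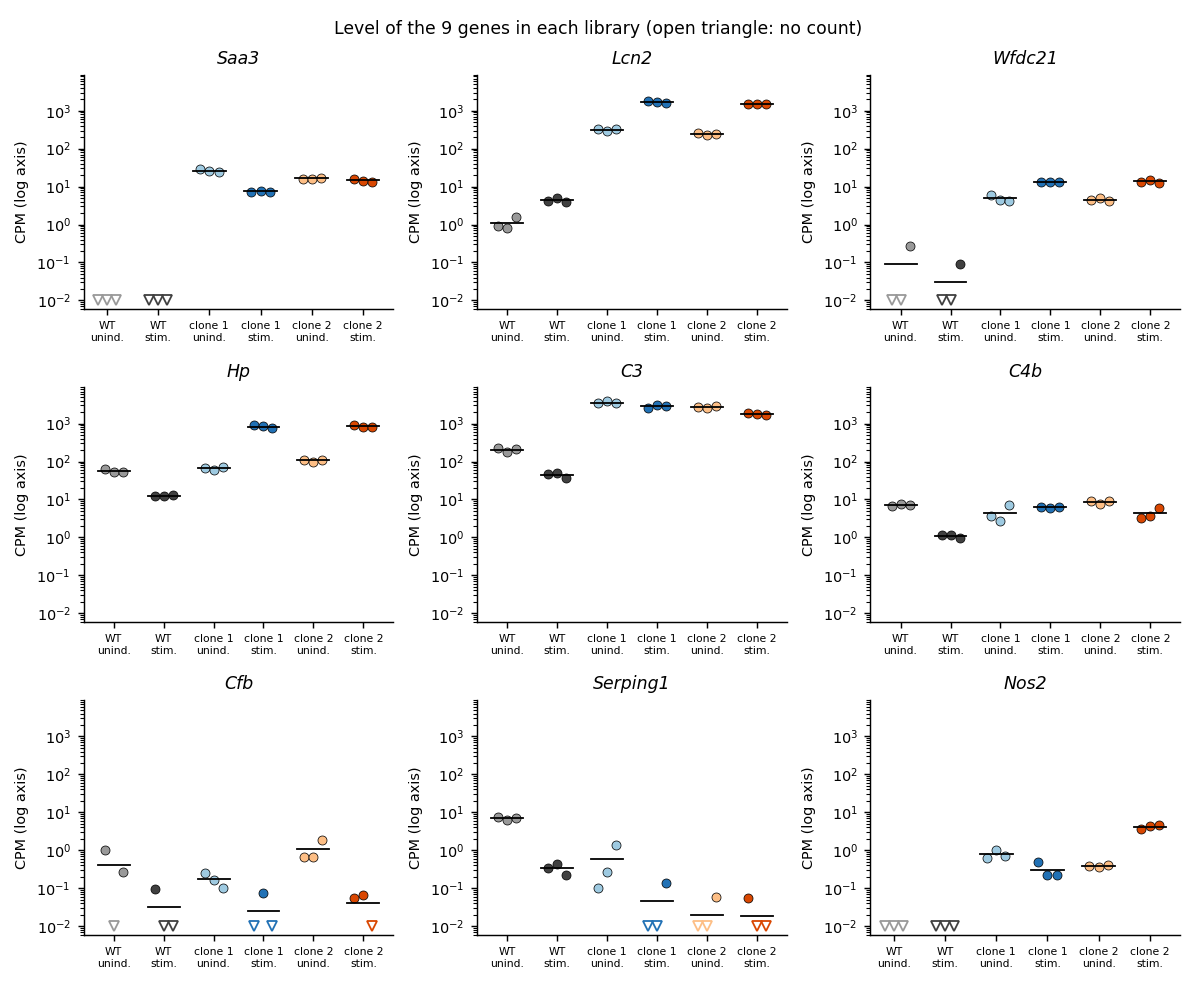
Level of each of the 9 genes in all 18 libraries, in CPM on a log axis, with 1 panel a gene and the 3 libraries of each group as points. Lines are group means and open triangles are libraries with no count. *Saa3* and *Nos2* have triangles in all 6 WT libraries, and *Serping1* is the member that is high in uninduced WT and low in both clones.

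*Saa3*, which codes for the serum amyloid A protein that mouse cells outside the liver make, gave no count in any of the 6 WT libraries. In clone 1 it stood at 29.2, 25.9 and 24.5 CPM uninduced and at 7.19, 7.78 and 7.38 CPM stimulated. In clone 2 it stood at 16.2, 16.3 and 16.6 CPM uninduced and at 15.7, 14.5 and 13.5 CPM stimulated. The raw counts were 1525 and 508 in clone 1 and 1380 and 726 in clone 2, uninduced and stimulated, against 0 and 0 in WT. Set against 3 counts over the WT group, *Saa3* was at least 552.6-fold higher in uninduced clone 1 and at least 339.5-fold higher in uninduced clone 2. In stimulated cells it was at least 164.1-fold and at least 319.8-fold higher. Every KO library lay above every WT library, and the order of the groups ran from uninduced clone 1 down through uninduced clone 2 and stimulated clone 2, whose ranges did not overlap, to stimulated clone 1. The level in uninduced clone 1 was 26.5 CPM with replicate 3 and 27.5 CPM without it. The liver-type paralogs *Saa1* and *Saa2* held at most 9 counts in any group.

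*Lcn2* codes for lipocalin 2, which binds bacterial siderophores. Its level was 0.932, 0.786 and 1.56 CPM in uninduced WT and 4.26, 4.97 and 3.83 CPM in stimulated WT. Clone 1 held 331, 292 and 330 CPM uninduced and 1843, 1725 and 1590 CPM stimulated. Clone 2 held 253, 231 and 248 CPM uninduced and 1464, 1533 and 1476 CPM stimulated. No KO library came near a WT library, and the stimulated clones lay above the uninduced ones. The log2 difference from WT was 8.10 ± 0.12 (SE, n = 3 against 3) in uninduced clone 1 and 7.72 ± 0.12 in uninduced clone 2, and 8.62 ± 0.10 and 8.42 ± 0.10 in stimulated cells. Without WT uninduced replicate 3, the highest of its group, the uninduced values were 8.53 and 8.15.

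*Wfdc21* codes for a small secreted protein with a whey acidic protein domain, and it was scarce in WT. WT held 7 counts uninduced, all in replicate 3, and 2 counts stimulated. Clone 1 stood at 6.10, 4.51 and 4.30 CPM uninduced and at 12.9, 13.4 and 13.1 CPM stimulated, and clone 2 at 4.35, 4.96 and 4.12 CPM uninduced and at 13.5, 14.7 and 12.8 CPM stimulated. All 12 KO libraries lay above all 6 WT libraries, and the clones overlapped each other in both states. In stimulated cells the ratio to WT was 432.8 in clone 1 (95% exact counting interval 119.5 to 3580) and 447.4 in clone 2 (123.4 to 3701). Uninduced, the log2 difference was 5.41 ± 0.41 and 5.26 ± 0.40. Without WT uninduced replicate 3 WT held 0 counts, and *Wfdc21* was at least 60.12-fold and at least 53.94-fold higher.

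*Hp*, the gene of haptoglobin, which binds free haemoglobin, differed from the 3 genes above in that WT and the clones lay close together before stimulation. Uninduced levels were 63.2, 53.5 and 51.6 CPM in WT, 66.8, 60.3 and 70.5 CPM in clone 1 and 108, 99.9 and 112 CPM in clone 2. Stimulated levels were 12.2, 12.6 and 12.8 CPM in WT, 901, 853 and 754 CPM in clone 1 and 915, 829 and 809 CPM in clone 2. WT and clone 1 overlapped when uninduced, and clone 2 lay above both. After stimulation the clones overlapped each other and lay far above WT. The log2 difference from WT was 0.24 ± 0.08 and 0.93 ± 0.08 in uninduced clones 1 and 2, neither called, and 6.06 ± 0.09 and 6.08 ± 0.09 in stimulated ones. Without WT uninduced replicate 1 the value of uninduced clone 2 was 1.02 and was called.

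**Figure D2:**
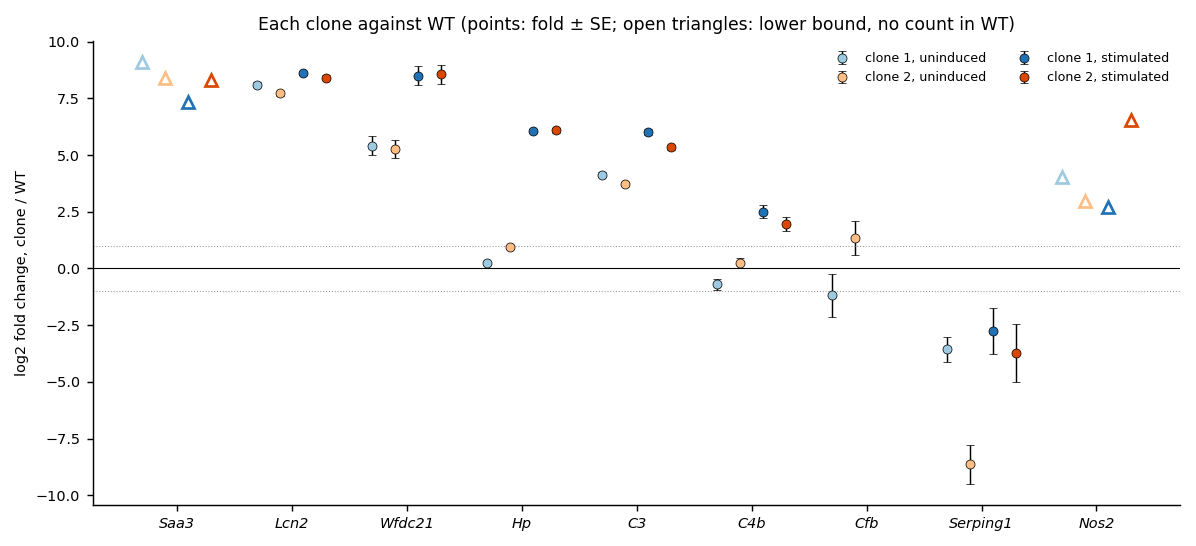
Log2 difference of each clone from WT for the 9 genes, uninduced and stimulated, with bars of ± 1 SE (n = 3 against 3) and dotted lines at 1 and -1. Open triangles are lower bounds against groups with no count. *Hp* lies near 0 in uninduced cells and near 6 in stimulated ones, while *Lcn2* lies between 7.72 and 8.62 in all 4 comparisons.

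Of the complement components, *C3* had the highest level. C3 is the protein on which all routes of complement converge. Uninduced levels were 222, 178 and 212 CPM in WT, 3445, 3908 and 3419 CPM in clone 1 and 2674, 2531 and 2894 CPM in clone 2. Stimulated levels were 46.2, 49.0 and 37.9 CPM in WT, 2642, 3049 and 2904 CPM in clone 1 and 1864, 1790 and 1728 CPM in clone 2. The clones lay above WT in both states. The log2 difference was 4.14 ± 0.11 and 3.72 ± 0.11 uninduced and 6.01 ± 0.12 and 5.34 ± 0.12 stimulated. Without replicate 3 the mean of uninduced clone 1 moved from 3591 to 3677 CPM.

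*C4b* codes for complement C4, which forms the C3 convertase of the classical route together with C2. Uninduced levels were 6.81, 7.81 and 7.09 CPM in WT, 3.59, 2.74 and 7.09 CPM in clone 1 and 9.10, 7.40 and 9.16 CPM in clone 2. Stimulated levels were 1.17, 1.17 and 0.947 CPM in WT, 6.50, 6.08 and 6.15 CPM in clone 1 and 3.25, 3.73 and 5.83 CPM in clone 2. Uninduced WT and the clones overlapped, whereas both stimulated clones lay above stimulated WT, by 2.50 ± 0.28 and 1.96 ± 0.30 on the log2 scale. In uninduced cells the log2 difference was -0.69 ± 0.24 in clone 1 and 0.24 ± 0.22 in clone 2, neither called. Without clone 1 uninduced replicate 3, the library with the hepatocyte transcripts, the clone 1 value was -1.19 and was called. *C4a* group means stayed between 0.479 and 0.846 CPM, and *C2* held 7 to 16 counts a group.

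*Cfb*, the gene of factor B, the protease of the alternative C3 convertase, was measurable in uninduced cells and nearly absent from stimulated ones. Uninduced levels were 0.990, 0 and 0.267 CPM in WT, 0.256, 0.161 and 0.104 CPM in clone 1 and 0.669, 0.664 and 1.86 CPM in clone 2. Each stimulated group held 2 counts in total, so no fold between stimulated groups can be given. WT overlapped both clones when uninduced, and *Cfb* was called in neither clone against WT. Without WT uninduced replicate 1 the log2 difference of uninduced clone 2 was 2.74 and was called.

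*Serping1* is the inhibitor among the 9 and was the member that was lower in the clones. WT held 7.63, 6.29 and 7.20 CPM uninduced and 0.342, 0.432 and 0.226 CPM stimulated. Clone 1 held 0.103, 0.268 and 1.40 CPM uninduced, and clone 2 held 0, 0 and 0.0580 CPM. The 3 stimulated libraries of clone 1 held 3 counts together and those of clone 2 held 1. All 6 uninduced KO libraries lay below uninduced WT, and the highest of them was the library with hepatocyte transcripts. The log2 difference of uninduced clone 1 was -3.56 ± 0.55, and -5.21 without that library. Uninduced WT exceeded clone 2 by a ratio of 596 (95% exact counting interval 107 to 23600). Stimulated WT exceeded clone 1 by a ratio of 7.57 (2.27 to 39.5) and clone 2 by 16.7 (2.69 to 687). These stimulated calls rest on 22 WT counts and were lost in 3 and 2 of the 18 fits that left out 1 library.

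*Nos2* codes for inducible nitric oxide synthase, which makes nitric oxide from arginine, and gave no count in any WT library. In clone 1 it stood at 0.615, 1.02 and 0.725 CPM uninduced and at 0.479, 0.221 and 0.228 CPM stimulated. In clone 2 it stood at 0.379, 0.354 and 0.406 CPM uninduced and at 3.59, 4.38 and 4.69 CPM stimulated. Stimulated clone 2 thus lay above the other 3 KO groups. Raw counts were 45 and 20 in clone 1 and 32 and 209 in clone 2. Against 3 counts over the WT group, *Nos2* was at least 16.31-fold and at least 7.87-fold higher in uninduced clones 1 and 2, and at least 6.46-fold and at least 92.07-fold higher in stimulated ones.

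Neutrophils carry lipocalin 2 and haptoglobin in their granules, and the 8 neutrophil markers examined moved with the groups. They summed to 0 to 0.0381 CPM in uninduced WT, 0.245 to 0.812 CPM in stimulated WT, 1.24 to 1.61 and 3.36 to 4.78 CPM in uninduced and stimulated clone 1, and 1.77 to 2.01 and 6.61 to 7.94 CPM in uninduced and stimulated clone 2. *Camp* and *S100a8* carried these sums. The defining markers *Ly6g*, *Mpo* and *Cxcr2* were at 0 in all 6 groups.

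**Figure D3:**
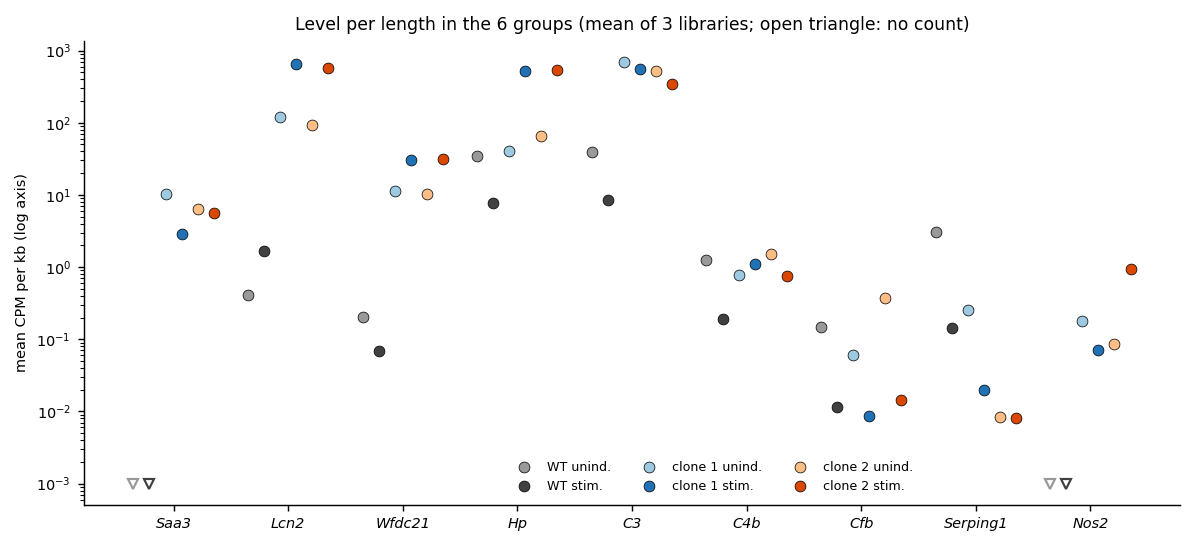
Mean level of each gene per kilobase of exon, in CPM per kb on a log axis, by group (n = 3). *C3* and *Lcn2* are the highest members in stimulated clone 1, at 557 and 655 CPM per kb, followed by *Hp* at 521.

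Levels per kilobase were taken over all annotated exons of a gene together. They are too low for a gene read mainly from a shorter transcript, so different genes compare only roughly. Per kilobase of exon, stimulated clone 1 held 655 CPM per kb of *Lcn2*, 557 of *C3* and 521 of *Hp*. The next member was *Wfdc21* at 30.3 CPM per kb. Stimulated clone 2 held 569 CPM per kb of *Lcn2*, 530 of *Hp* and 349 of *C3*, with *Wfdc21* at 31.4. In stimulated WT the highest members were *C3* at 8.63 and *Hp* at 7.80 CPM per kb, ahead of *Lcn2* at 1.66. In uninduced WT *C3* and *Hp* also led, at 39.7 and 34.9 CPM per kb, followed by *Serping1* at 3.03.

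The response to TGF-β1 and DMII, stimulated minus uninduced, was taken within WT and within each clone. In WT 6 members were called, 1 higher (*Lcn2*) and 5 lower (*Hp*, *C3*, *C4b*, *Cfb*, *Serping1*), beside 19.9% of all genes (6.25% higher, 13.6% lower). In clone 1 6 members were called, 3 higher (*Lcn2*, *Wfdc21*, *Hp*) and 3 lower (*Saa3*, *Serping1*, *Nos2*), beside 16.7% of all genes (5.95% higher, 10.7% lower). In clone 2 6 were called, 4 higher (*Lcn2*, *Wfdc21*, *Hp*, *Nos2*) and 2 lower (*C4b*, *Cfb*), beside 17.7% (6.46% higher, 11.2% lower).

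*Lcn2* rose in WT and in both clones, by 1.92 ± 0.19 on the log2 scale in WT, 2.44 ± 0.07 in clone 1 and 2.61 ± 0.07 in clone 2. *Hp* fell by 2.16 ± 0.09 in WT and rose by 3.66 ± 0.08 in clone 1 and 3.00 ± 0.08 in clone 2. *C3* fell by 2.20 ± 0.11 in WT, and its log2 response was -0.33 ± 0.09 and -0.59 ± 0.09 in the clones, which was not called. *Hp* thus moved in opposite directions in WT and in the clones, and *C3* was called in WT alone.

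*C4b* fell by 2.72 ± 0.28 in WT and by 1.00 ± 0.24 in clone 2, where the call was lost in 10 of the 18 fits that left out 1 library (-0.82 without clone 2 stimulated replicate 1). Its log2 response in clone 1 was 0.48 ± 0.24, and 0.98 without uninduced replicate 3, called in neither case. *Serping1* fell by 4.37 ± 0.58 in WT. In clone 1 uninduced cells exceeded stimulated ones by a ratio of 13.4 (95% exact counting interval 4.21 to 68.1), and this call was lost without uninduced replicate 3, where the log2 response was -1.92. In clone 2 both states held 1 count. *Cfb* was lower in stimulated cells of WT and of each clone, with uninduced over stimulated ratios of 12.6 in WT (3.14 to 110), 5.90 in clone 1 (1.26 to 55.4; not called) and 22.6 in clone 2 (6.06 to 190). The WT call was lost in 3 of the 18 fits.

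*Saa3* fell by 1.83 ± 0.12 in clone 1, and its log2 response in clone 2 was -0.17 ± 0.12. *Wfdc21* rose by 1.40 ± 0.21 and 1.60 ± 0.21 in clones 1 and 2. *Nos2* rose by 3.46 ± 0.48 in clone 2 and was called lower in clone 1, at -1.37 ± 0.53, a call lost in 6 of the 18 fits. *Lcn2*, *Wfdc21* and *Hp* were thus called higher in both clones, whereas *Nos2* was called in opposite directions in them. The difference between the responses of the clones was not tested.

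**Figure D4:**
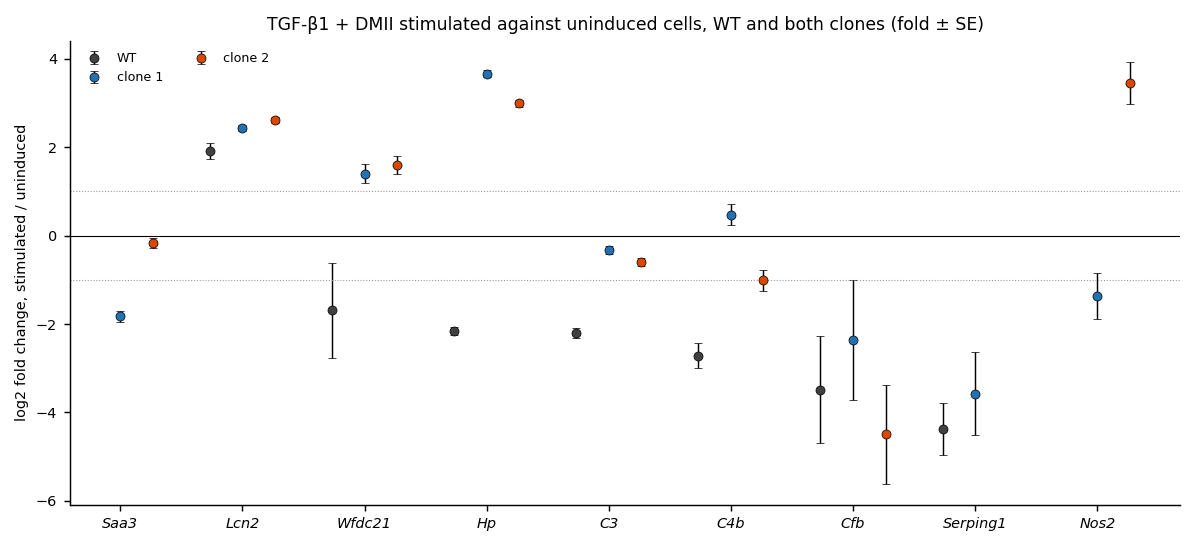
Log2 response (stimulated minus uninduced) of the 9 genes in WT, clone 1 and clone 2, with bars of ± 1 SE (n = 3 against 3). *Hp* lies at -2.16 in WT and above 2.9 in both clones, and *Nos2* lies at -1.37 in clone 1 and at 3.46 in clone 2.

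The difference between a clone's response and that of WT was called for 4 members in each clone, all higher in the clone (*Wfdc21*, *Hp*, *C3*, *C4b*), beside 8.81% of all genes in clone 1 (5.34% higher, 3.46% lower) and 7.85% in clone 2 (4.89% higher, 2.96% lower), and 3.12% higher and 1.60% lower in both. For *Hp* it was 5.82 ± 0.12 and 5.15 ± 0.12 on the log2 scale, and for *C3* 1.88 ± 0.14 and 1.61 ± 0.14. For *Lcn2* it was 0.52 ± 0.22 and 0.69 ± 0.22, not called, and 0.0902 and 0.264 without WT uninduced replicate 3. For *C4b* it was 3.20 and 1.71. The *Wfdc21* values rest on the 7 and 2 counts of WT and turned from 3.09 to -1.23 in clone 1 and from 3.29 to -1.03 in clone 2 without WT uninduced replicate 3, so no direction can be given for it.

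Between the clones, 2 members were called in uninduced cells (*Serping1* higher and *Cfb* lower in clone 1), beside 8.67% of all genes (4.89% higher and 3.78% lower in clone 1), and 1 in stimulated cells (*Nos2*, lower in clone 1), beside 9.98% (5.50% higher, 4.48% lower). *Serping1* in uninduced clone 1 exceeded that in clone 2 by a ratio of 50.1 (95% exact counting interval 8.40 to 2035), with 27 of the 34 clone 1 counts in the library with hepatocyte transcripts. Without it the ratio was 15.5 (1.99 to 699.8), on 7 counts against 1. *Cfb* differed by -2.53 ± 0.86 on the log2 scale, a call lost in 3 of the 18 fits. Stimulated clone 1 held less *Nos2* than clone 2, by -3.78 ± 0.50. *C4b* was not called between uninduced clones, but was at -1.44, and called, without the clone 1 library with hepatocyte transcripts. *Saa3* differed by 0.70 ± 0.11 uninduced and by -0.96 ± 0.13 stimulated, neither called.

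Without clone 1 uninduced replicate 3 the remaining values of uninduced clone 1 moved little. Against uninduced WT, *Saa3* was at least 574.1-fold and *Nos2* at least 16.92-fold higher, and the log2 difference was 8.08 for *Lcn2*, 5.51 for *Wfdc21*, 0.19 for *Hp* and 4.17 for *C3*. The log2 response of clone 1 was -1.88 for *Saa3*, 2.46 for *Lcn2*, 1.31 for *Wfdc21*, 3.71 for *Hp*, -0.36 for *C3* and -1.42 for *Nos2*. The response of clone 1 minus that of WT was 5.87 for *Hp*, 1.84 for *C3* and 3.69 for *C4b*. Values on few counts moved more. The uninduced over stimulated ratio in clone 1 was 4.15 for *Serping1* (95% exact counting interval 0.947 to 24.9) and 7.11 for *Cfb* (1.42 to 68.7), and the difference of *Cfb* between the uninduced clones was -2.27 and no longer called.

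Genes related to the 9 were taken in 10 lists of 141 genes in all, each in the table, of which 82 passed the filter. The lists were drawn up with earlier results of these data known, so their counts and medians are descriptions, and the median log2 difference of all genes tested was -0.0151 and -0.00966 in stimulated clones 1 and 2. For the list counts below, the shares of all genes tested were 5.26% higher and 5.77% lower in both stimulated clones. In both uninduced clones they were 3.28% higher and 5.78% lower. Adjusted p-values below are those of the quasi-likelihood test of edgeR, Benjamini-Hochberg adjusted over all genes tested, and means are over 3 libraries. The genes named were picked by their calls in these same comparisons, so these p-values are descriptions too and not independent tests.

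Of the acute phase list, 14 of 30 genes were tested. In both stimulated clones 11 were higher and 1 was lower than in stimulated WT, with median log2 differences of 3.64 and 3.62. *Serpina3n*, a secreted serine protease inhibitor, stood at 5.07 CPM in stimulated WT against 1304 and 819.9 CPM in stimulated clones 1 and 2 (log2 difference 8.01 ± 0.14, adjusted p 1.81e-17, and 7.34 ± 0.14, adjusted p 5.5e-17). *Orm3*, of the orosomucoid family, held 0 counts in uninduced WT and was at least 135.2-fold and at least 76.02-fold higher in the uninduced clones. *Cp*, the gene of the copper protein ceruloplasmin, was higher in both states but fell with stimulation, from 447.5 to 53.5 CPM in clone 1 and from 20.4 to 2.20 CPM in WT. The tested genes of the list were mostly higher in the clones than in WT, but they did not share 1 response to stimulation.

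Of the classical and lectin pathway list, 8 of 18 genes were tested. In both stimulated clones 4 were higher than in stimulated WT, with median log2 differences of 2.90 and 2.30. They were the C1 protease genes *C1ra*, *C1rb*, *C1s1* and *C1s2*. *C1ra* stood at 0.733 CPM in stimulated WT against 13.9 and 11.4 CPM in the clones (4.21 ± 0.21, adjusted p 2.61e-14, and 3.93 ± 0.22, adjusted p 3.47e-13). *C1s1* stood at 0.764 CPM against 14.8 and 7.26 CPM. In uninduced cells *C1ra* and *C1s1* differed less, at 1.63 ± 0.10 and 1.08 ± 0.08 in clone 1. The product of *Serping1* inhibits the C1 proteases, whose genes stood higher in the stimulated clones, where *Serping1* stood lower. With stimulation, *C1ra* and *C1s1* fell in WT and in both clones. In WT *C1ra* went from 43.7 to 0.733, *C1s1* from 62.6 to 0.764 and *Serping1* from 7.04 to 0.333 CPM. In clones 1 and 2 *C1ra* went from 135.5 to 13.9 and from 123.2 to 11.4 CPM. There *C1s1* went from 132.7 to 14.8 and from 165.9 to 7.26 CPM. *Serping1* went from 34 to 3 counts in clone 1, 27 of the 34 in the library with hepatocyte transcripts. In clone 2 it held 1 count in each state. A link between the levels of *Serping1* and of the C1 protease genes was not tested.

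Of the complement regulators, 6 of 14 were tested, and *Cd55* was lower in both stimulated clones than in stimulated WT. *Cd55*, the gene of decay-accelerating factor, stood at 10.2 CPM in stimulated WT, at 0.157 CPM in clone 1 (-5.94 ± 0.53, adjusted p 2.11e-10) and at 0 counts in clone 2, at least 170.3-fold lower. In uninduced cells its means were 0.0535 to 0.173 CPM. *Clu*, the gene of clusterin, was called higher in both uninduced clones, at 1.02 ± 0.06 and 1.23 ± 0.06.

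The other complement lists held few expressed genes. Of the alternative and terminal list 2 of 9 were tested and *Cfp*, the gene of properdin, was called in both stimulated clones at 1.22 ± 0.51 (adjusted p 0.0421) and 1.57 ± 0.52 (adjusted p 0.0105), with means no higher than 1.34 CPM in any group. The clone 1 call was lost in 8 of the other fits tried. Of the receptors 3 of 9 were tested. *Itgb2*, the β chain of complement receptor 3, stood at 1.30 CPM in uninduced WT against 8.07 and 7.90 CPM in the uninduced clones (2.65 ± 0.26 and 2.62 ± 0.26). Neither list gives more than 1 gene called in both clones.

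Of the nitric oxide and arginine list 8 of 11 were tested, with 1 higher and 3 lower in both stimulated clones. *Slc7a2*, a carrier of arginine into the cell, stood at 73.3 CPM in stimulated WT against 357 and 820.3 CPM in the clones (2.28 ± 0.06, adjusted p 4.23e-23, and 3.48 ± 0.06, adjusted p 5.96e-27). *Ddah1* and *Ddah2*, which break down methylarginine inhibitors of nitric oxide synthases, and *Ass1*, of arginine synthesis, were lower, *Ass1* at 39.7 CPM in stimulated WT against 3.07 and 10.98 CPM. Of the whey acidic and lipocalin list, 6 of 11 were tested and 4 were higher in both stimulated clones than in WT (*Wfdc18*, *Wfdc3*, *Slpi*, *Apod*). *Slc22a17*, a receptor of lipocalin 2, was lower, at 4.54 CPM against 1.37 and 0.305 CPM (-1.73 ± 0.28 and -3.88 ± 0.36).

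Of the NF-κB list 14 of 17 were tested and 4 were higher in both stimulated clones than in WT (*Nfkbiz*, *Nfkbia*, *Relb*, *Tnfrsf1b*), with medians of 0.34 and 0.69. None was called lower in both, while 1 gene was called lower in clone 1 and 2 in clone 2. *Nfkbiz*, a nuclear cofactor of NF-κB, stood at 15.5 CPM in stimulated WT and at 124 and 211 CPM in the clones (3.00 ± 0.12, adjusted p 8.7e-15, and 3.77 ± 0.12, adjusted p 2.68e-16). Of the IL-6, STAT3 and C/EBP list 13 of 14 were tested, and in both stimulated clones 6 were higher and 1 was lower than in WT. *Cebpd* and *Cebpb*, which code for C/EBPδ and C/EBPβ, stood at 272 and 383 CPM in stimulated WT. In stimulated clones 1 and 2 *Cebpd* stood at 748.8 and 1008 CPM and *Cebpb* at 965 and 1069 CPM. *Lif*, a cytokine of the IL-6 family, stood at 7.94 CPM in stimulated WT against 34.1 and 45.9 CPM in the clones. *Il11*, of the same family, stood at 9.52 CPM in stimulated WT against 0.501 and 1.08 CPM. Of the glucocorticoid readout list all 8 were tested and 4 were higher in both stimulated clones than in WT (*Tsc22d3*, *Fkbp5*, *Nr3c1*, *Sgk1*). In uninduced cells 2 were called lower in both clones (*Klf9*, and *Zbtb16* on 7 counts of WT against 0) and none higher. *Fkbp5* stood at 83.4 CPM in stimulated WT against 478 and 272 CPM.

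**Figure D5:**
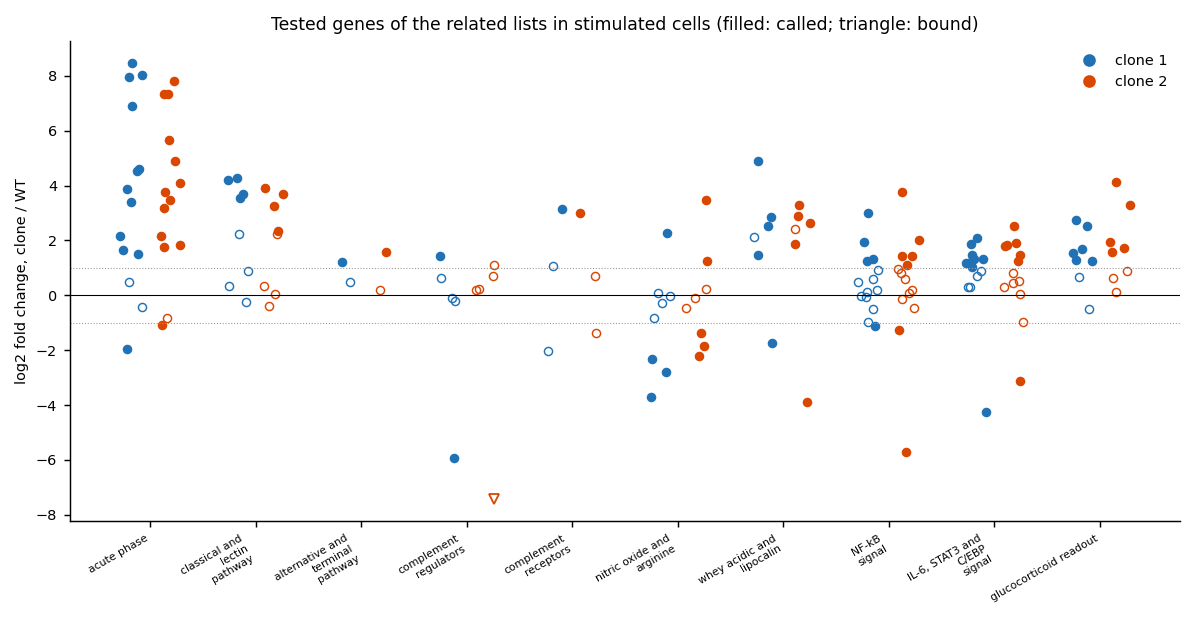
Log2 difference from WT in stimulated clone 1 and clone 2 for the tested genes of the 10 related lists but 1 that is not reported, with filled points for genes called and open points for those not called. The triangle is the lower bound for *Cd55* in clone 2. Of the acute phase list, 11 of 14 genes are called higher in both clones.

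The genes whose levels over the 6 groups were most like those of a member were named by the root mean square difference of centred log2 mean CPM over the 6 groups, among tested genes that averaged 1 CPM or more. For *Saa3* they were *Sh3tc2* (0.829), *Orm3* (0.949) and *Tmem176a* (1.2). For *Lcn2* they were *Serpina3f* (1.25), *Wfdc21* (1.33) and *Orm3* (1.62), and for *Wfdc21* *Serpina3i* (0.616), *Orm3* (0.639) and *Mctp1* (0.737). *Orm3* was thus among the nearest genes of 3 members, which did not share 1 response to stimulation. It went from 6.5 to 4.31 CPM in clone 1 and from 3.54 to 8.04 CPM in clone 2. *Lcn2* and *Wfdc21* rose in both clones, and *Saa3* fell in clone 1. For *Hp* they were *Slc25a34* (0.691), *Fam83a* (0.698) and *Limch1* (0.820), and for *C3* *Sybu* (0.510), *Zbtb7c* (0.567) and *Mctp1* (0.639). For *C4b* they were *Kitl* (0.228), *N4bp2l1* (0.263) and *Enpp2* (0.343), and for *Cfb* *Inpp4b* (0.334), *Klf11* (0.4) and *Fuca2* (0.42). For *Serping1* they were *Nkain3* (0.277), *Phactr1* (0.472) and *Rassf9* (0.519), and for *Nos2* *Vnn3* (0.781), *Nfkbiz* (0.869) and *Tnr* (0.903). *Nfkbiz* stood at 14.4 and 15.5 CPM in WT, where *Nos2* gave no count. With stimulation of clone 1 it went from 63.3 to 124 CPM, whereas *Nos2* went from 0.786 to 0.309 CPM. With a prior count of 0.5 in place of 2, 19 of the 27 named neighbours remained.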

How the data were processed

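The members and lists were chosen with earlier results of these data known. The authors deposited a table of raw counts per gene for 18 poly(A)-selected libraries. Paired reads were aligned with HISAT2 to mm10 per the labels. For the counting program, annotation release and strand, the sources used here give no entry, so genes overlapping on opposite strands may share reads.

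Counts were fitted in R 4.3.3 with edgeR 4.0.16 (filterByExpr with a minimum count of 10, TMM, robust glmQLFit and glmQLFTest) in 1 model of the 6 groups, without a block, over 11 comparisons, and p-values were Benjamini-Hochberg adjusted. The SE of a log2 difference is its size over the root of F. A group at 0 was set at 3 counts, and ratios on 1 to 3 counts carry 95% Clopper-Pearson intervals, for counting error only. Scripts were tested on simulated data. Named were the members, near paralogs, list genes called in the same direction in both clones (at most 5 a list and state) and 3 nearest genes a member. Of the list genes so named, some are given by count only, and 1 is not reported here. Alternatives were DESeq2 1.42.0, its size factors, no filter, a prior count of 0.5, the groups compared alone, a replicate block and leaving out each library. Figures used matplotlib 3.10.9 in Python 3.11.15.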

Additional observations from a re-analysis of the deposited data

Results flagged for a closer look

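*Hp* moved in opposite directions in WT and the clones, and *Nos2* in clone 1 and clone 2, with every library on its side. The log2 response of *Hp* to stimulation was -2.16 in WT, 3.66 in clone 1 and 3.00 in clone 2, and that of *Nos2* was -1.37 in clone 1 and 3.46 in clone 2, where the clone 1 call of *Nos2* was lost in 6 of the 18 fits without 1 library. The response of the clones minus that of WT was 5.82 and 5.15 for *Hp* and was called in both, which is a description because the members were chosen with these values known. The difference between the *Nos2* responses of the clones was not tested.

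In the related lists, the response to stimulation differed between a clone and WT in edgeR's quasi-likelihood interaction test (Benjamini-Hochberg adjusted) in both clones for 14 of the genes named here with over 3 counts in each group. Of all genes tested, 3.12% were called higher and 1.60% lower in both. The genes were named by their calls against WT in these same libraries, on which the interaction also rests. The adjusted p-values are therefore descriptions and not independent tests. The values below are the response of the clone minus that of WT on the log2 scale, for clone 1 and then clone 2, and both share the WT libraries. For *Serpina3n*, a serine protease inhibitor, they were 6.39 (adjusted p 8.55e-13) and 5.33 (adjusted p 8.34e-12). *C1ra*, a C1 protease, had 2.58 (adjusted p 2.85e-08) and 2.44 (adjusted p 1.24e-07). Those of *C1rb*, a C1 protease, were 2.74 (adjusted p 0.000763) and 2.44 (adjusted p 0.00322), and rest on 4 counts in stimulated WT. For *C1s1*, a C1 protease, they were 3.18 (adjusted p 1.79e-13) and 1.84 (adjusted p 1.67e-07). Those of *Ass1*, of arginine synthesis, were -1.71 (adjusted p 0.0068) and -1.66 (adjusted p 0.00189). For *Wfdc3*, of the whey acidic protein family, they were 3.14 (adjusted p 1.79e-13) and 2.61 (adjusted p 4.52e-12). *Apod*, a lipocalin, had 3.43 (adjusted p 1.34e-20) and 1.97 (adjusted p 6.24e-15). Those of *Nfkbia*, the inhibitor of NF-κB, were 1.08 (adjusted p 3.15e-10) and 1.10 (adjusted p 2.36e-10). For *Lif*, an IL-6 family cytokine, they were 2.03 (adjusted p 3.72e-05) and 3.88 (adjusted p 3.58e-09). *Tsc22d3*, a glucocorticoid target, had 3.70 (adjusted p 1.3e-16) and 2.97 (adjusted p 7.26e-15). Those of *Fkbp5*, a glucocorticoid target, were 2.82 (adjusted p 1.37e-13) and 2.64 (adjusted p 7.88e-13). For *Nr3c1*, the glucocorticoid receptor, they were 1.17 (adjusted p 1.78e-12) and 1.21 (adjusted p 1.09e-12). *Sgk1*, a glucocorticoid-induced kinase, had 2.39 (adjusted p 7e-19) and 2.93 (adjusted p 1.01e-20). Those of *Klf9*, a glucocorticoid target, were 3.03 (adjusted p 1.08e-19) and 1.83 (adjusted p 9.37e-15). *Ass1* was the 1 gene of these with a lower response in the clones. The limit on counts left out *Cd55* and *Orm1*, whose responses were also called lower in both clones. They rest on 0 counts of *Cd55* in stimulated clone 2 and on 1 count of *Orm1* in uninduced WT.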

How the results depend on the processing

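Of the alternative log2 values of the members whose groups both held over 3 counts, 1440 in all, 1428 moved by less than the spread between replicates and 12 by more, and of 5161 of the named list genes 40 lost and 40 gained a call. None of these changed sign where called. Among members on 3 counts or fewer, the *Wfdc21* response of the clones minus WT did change sign, to -1.23 and -1.03, without WT uninduced replicate 3, the library with all 7 of its uninduced WT counts. The number of members called between the clones was 2 in uninduced cells, 1 in a fit of the groups compared alone, where low members were not tested, and 1 to 3 when 1 library was left out. In stimulated cells it was 1, and 1 to 2 when 1 library was left out. The related lists held 16 genes called between uninduced clones, and 28 with no filter on low counts, which tests more genes. The cause of the other moves was not tested. Same-numbered libraries did not deviate together (45 pairings, r -0.0412 to 0.0498), and 4 of 18 libraries correlated best with their own number. With the replicate block, 8 and 8 members were called in stimulated clones 1 and 2 and 6 and 6 in uninduced ones, as without it. Calls near the threshold included the *C4b* response in clone 2, at -1.004 and lost in 10 of the 18 fits without 1 library and, at -0.99, in the fit of the groups compared alone, the *Nos2* response in clone 1, lost in 6 of the 18, and those of *Cfp* in stimulated clone 1, *Clu* and *Tnfrsf1b* in uninduced clone 1, *Lifr* in uninduced clone 2 and *Zbtb16*. Depth limits *Cfb*, *Serping1*, *Wfdc21* and *Nos2* most.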
